A study of Mus musculus with 10 samples.

Results

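Interleukins are secreted messengers of the immune system, and the genes described here are those of the interleukins and of the chains of their receptors. Members were all genes of the deposited values whose mouse symbol begins with Il and a digit, which gave 70 of 21792 genes. By role, 29 of them encode ligands, 35 encode receptor chains, 4 encode antagonists, decoy receptors or binding proteins (*Il18bp*, *Il1rn*, *Il1r2* and *Il1f5*), 1 encodes an enzyme (*Il4i1*, an amino acid oxidase) and 1 is an antisense RNA (*Il1bos*). RNA came from the kidney cortex of 10 wild-type male C57BL/6 mice, aged 8 weeks at injection per the methods, 1 mouse per library and none pooled. The 6 AAN (aristolochic acid nephropathy) mice had received a single intraperitoneal dose of aristolochic acid, a plant toxin that injures the proximal tubule, at 5 mg/kg in PBS, and the 4 sham mice had received the same amount of PBS. All were taken on day 28, so both groups share strain, sex, age and vehicle. The question put to these genes was how ligands and receptors differ between sham and AAN cortex.

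An interleukin acts when it binds its receptor on a target cell, and the receptor is usually built from a chain that binds 1 ligand and a chain that several ligands share. Receptors of the common gamma chain, common beta chain, IL-6, IL-12 and IL-10 families signal through JAK kinases and STAT factors, whereas IL-1 and IL-17 receptors signal through adaptors that lead to NF-kB. Several ligands of the IL-1 family are held in check by an antagonist, a decoy receptor or a binding protein. In the injured kidney, tubular cells and infiltrating leukocytes are both known as sources of interleukins.

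Values are FPKM (fragments per kilobase and per M fragments), so that levels of different genes can be set side by side. Library depth was 15.8 to 17.5 M fragments in sham mice and 13.4 to 16.5 M in AAN mice, and 16690 to 17639 and 19158 to 19636 genes were above 0. The sham mouse B634 had the highest mitochondrial share of the FPKM total (61.4%) and the fewest genes above 0, and the AAN mouse B614 lay nearest to sham in the proximal tubule markers (a summed level of 1810 FPKM, with 1607 to 3487 FPKM in sham mice). Proximal tubule markers were abundant in sham cortex, and 4 of 6 were called lower in AAN mice by the limits given below. All 8 leukocyte markers, all 7 macrophage markers and all 8 T cell markers were called higher. Of all genes tested, 35.8% were called higher and 3.43% lower, so a rise was the more common direction. Their summed levels were 9.08 to 19.8 FPKM in sham and 188 to 491 FPKM in AAN mice for leukocytes, 37.9 to 60.7 and 619 to 2146 FPKM for macrophages, and 1.11 to 3.50 and 80.2 to 196 FPKM for T cells. Of 5 neutrophil markers, the 4 tested were called higher. Only 2 were called after rescaling by the median of ratios (described below), and 2 with a pseudocount of 1. The summed level of the 5 was 0.228 to 2.11 FPKM in sham and 2.69 to 16.0 FPKM in AAN mice. *Ly6g* was too low to be tested, at 0 in all sham mice and a mean of 0.0403 FPKM in AAN mice. All 6 markers of injured tubule were called higher as well, and none of these lists had a gene at 0 in all AAN mice. In RNA of whole cortex, more cells of a type and more RNA per cell cannot be told apart, and the part of these cells in the results below was not tested. Of 5 mast cell markers 2 were listed. Of these *Cpa3* was too low to be tested, at 0 in all sham mice and a mean of 0.0133 FPKM in AAN mice.

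Most interleukin genes were higher in AAN cortex in the deposited values, as were most genes. The AAN mean was above the sham mean for 67 of 70 members, the exceptions being *Il11ra1*, *Il22ra1* and *Il17f*, and for 82.0% of all listed genes. A gene was called when its adjusted p from limma was at most 0.05 and its change at least 2-fold. Of the 70 members 53 were tested, and 43 were called higher and 0 lower. Of all genes tested 35.8% were called higher and 3.43% lower. By role the members called higher were 14 of 29 ligands (17 tested), 25 of 35 receptors (32 tested), 3 of 4 antagonists or decoys (3 tested), and *Il4i1*. Levels in all AAN mice lay above those in all sham mice for 44 of 70 members (33.5% of all listed genes), among them 12 ligands and 27 receptors.

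Much of the distance between the roles lay in how many members were measurable. The minimum for a test was an average of 0.1 FPKM or more across all 10 mice, which 17 of 29 ligands reached, against 32 of 35 receptors. Of the 53 members tested, 22 had a sham mean under that minimum and could pass it only through AAN mice, 10 of them ligands and 10 receptors. Among the 31 members tested whose sham mean reached 0.1 FPKM, 22 were called higher, 5 of 7 ligands and 15 of 22 receptors. The share over all genes tested was 35.8%, without that limit on the sham mean. The share with it was not computed, so no excess is read from this count. Over the members tested the median log2 fold change was 2.14 for ligands, 2.11 for receptors and 2.78 for antagonists or decoys, and 0.75 over all genes tested, a description that carries the same selection.

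**Figure D1:**
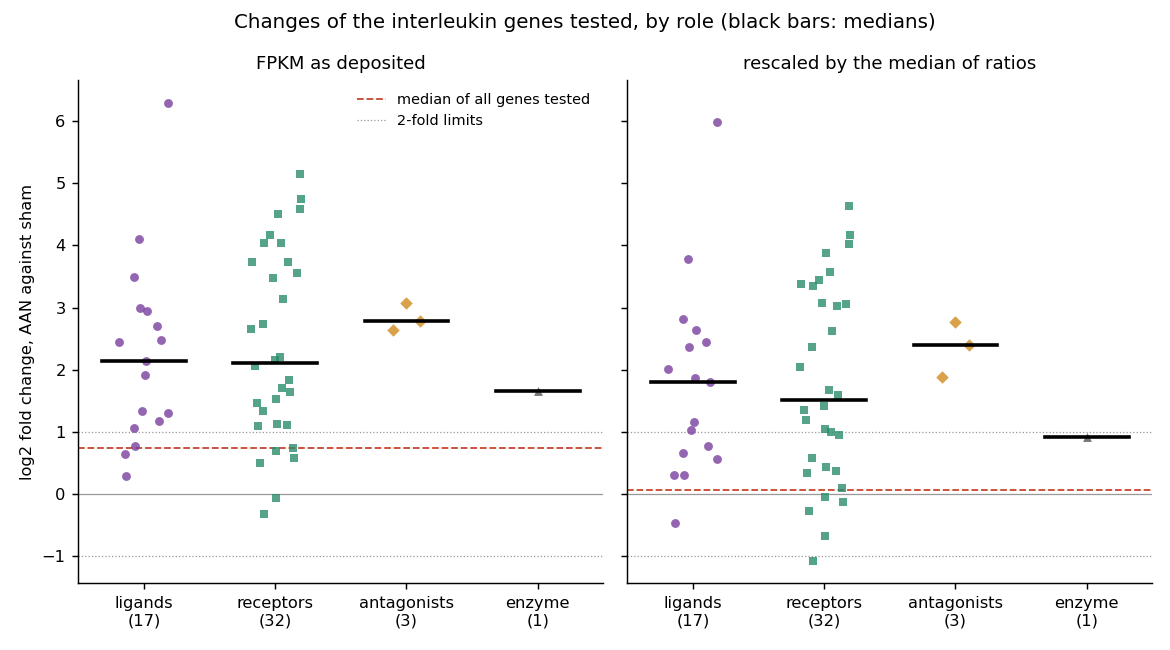
Log2 fold change of AAN against sham for the 17 ligands, 32 receptors, 3 antagonists or decoys and 1 enzyme tested, as deposited (left) and after rescaling by the median of ratios (right), with 1 point per gene. Black bars are medians, the dashed line is the median of all genes tested (0.75 and 0.06) and dotted lines mark 2-fold. Ligands and receptors overlap over most of their range, and *Il1f6* is the highest point in both panels.

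Summed over members, the 29 ligands came to 12.9, 13.6, 15.9 and 12.9 FPKM in the sham mice B607, B634, B636 and H249, and to 32.3 to 74.1 FPKM in AAN mice (median 62.3). The 35 receptors came to 71.4, 41.9, 49.9 and 58.6 FPKM in the same sham mice, and to 145 to 229 FPKM in AAN mice (median 184). Receptor transcripts thus outnumbered ligand transcripts in every mouse, by a ratio of 3.09 to 5.54 in sham and 2.82 to 4.50 in AAN mice, and these ratios overlapped. The gene with the highest group mean differed between the groups, although not every mouse followed the order of the means. *Il15* made up 38.6% of the ligand sum in sham mice, and *Il34* 31.7% in AAN mice. Among receptors *Il13ra1* held 29.8% of the sham sum and *Il2rg* 13.5% of the AAN sum.

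Because most genes were higher in AAN mice in FPKM, the values were also rescaled by the median of ratios, which moved the median of all genes tested by -0.68 to 0.06. On that scale 34 members were called higher (10 ligands, 21 receptors and 3 antagonists or decoys) and 1 lower, *Il11ra1*, against 19.0% of all genes higher and 10.5% lower. After quantile normalization 29 members were called higher and 0 lower, against 14.9% and 11.6% of all genes. With a pseudocount of 1, which hides changes under 1 FPKM, 26 members were called higher (17.0% of all genes tested), and with a filter of 1 FPKM on the mean again 26 (32.8%). The call was lost on both scales for *Il1f9*, *Il11*, *Il18*, *Il23a*, *Il10rb*, *Il17rc*, *Il17rd*, *Il17re* and *Il4i1*, and after quantile normalization also for *Il1r1*, *Il5ra*, *Il12rb2*, *Il17rb* and *Il20rb*. In the deposited values 31 of the 53 members tested lay more than 1 above the median of all genes on the log2 scale, against 16.9% of all genes tested. As 22 of the 53 had a sham mean under 0.1 FPKM and were tested only through AAN mice, no excess is read from this count.

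The IL-1 family gave the largest change among ligands. *Il1f6* (ENSMUSG00000026984) encodes IL-36 alpha, an alarm signal of epithelia, and lies on chromosome 2 of GRCm38 from 24215418 to 24225702. It was listed at 0 FPKM in all 4 sham mice and was at 3.52 to 13.9 FPKM in the 6 AAN mice (median 8.35), so the groups did not overlap. With sham set to the limit that a count of 0 allows (3 fragments per library over the shortest transcript), its AAN mean was at least 22.8-fold higher (fitted log2 fold change 6.30, which depends on the pseudocount, limma adjusted p = 1.47e-07). *Il1rl2*, the receptor chain that binds IL-36, was at 0.0680, 0.120, 0.0651 and 0.0505 FPKM in the sham mice (in the order above) and at 1.001 to 1.86 FPKM in AAN mice (median 1.395). Ligand and receptor of this axis were thus both low or at 0 in sham cortex and above 1 FPKM in every AAN mouse. The log2 fold change of *Il1rl2* was 3.13 ± 0.22 (standard error, limma adjusted p = 4.27e-07). The other IL-36 ligands stayed low, with *Il1f9* (IL-36 gamma) at most 0.516 FPKM and *Il1f8* (IL-36 beta) at most 0.0998 FPKM. *Il1f9* was called higher (1.34 ± 0.48, limma adjusted p = 0.0301) although its groups overlapped, and without any 1 of B607, B636, H249, A483, B642 or B666 its adjusted p was 0.0547 to 0.0741. It was not called after the median of ratios (1.03, limma adjusted p = 0.0948) or quantile normalization (0.76, limma adjusted p = 0.276).

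*Il1a* and *Il1b* encode the agonists IL-1 alpha and IL-1 beta. In AAN mice *Il1a* was at 0.484 to 3.005 FPKM (median 2.28), and in sham mice at 0.0289 FPKM in B607 and at 0 in the other 3. As this gene has 1 annotated transcript, its fragments could be recovered as whole numbers: 1 over the 4 sham mice, and 44, 15, 92, 60, 74 and 74 in the AAN mice A483, B614, B630, B639, B642 and B666. *Il1b* was at 0.510, 0.429, 0.336 and 0.438 FPKM in sham and 2.03 to 3.51 FPKM in AAN mice (median 3.04). Both genes were thus higher in every AAN mouse than in any sham mouse, *Il1b* from a measurable sham level and *Il1a* from almost none. The means of *Il1b* differed 6.76-fold (log2 fold change 2.48 ± 0.21, limma adjusted p = 1.397e-06), and the fitted value of *Il1a* was 4.10 ± 0.41 (limma adjusted p = 5.74e-06). *Il1bos*, annotated on the other strand over *Il1b*, was at most 0.106 FPKM, and as the strand setting of the counting is not stated, fragments of the pair cannot be separated.

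*Il33* and *Il18* encode further IL-1 family ligands, a nuclear alarm signal and a caspase-1 substrate. *Il33* was at 0.293, 0.408, 0.404 and 0.427 FPKM in sham and at 2.93 to 9.74 FPKM in AAN mice (median 5.14), without overlap and with means that differed 15.1-fold (3.50 ± 0.31, limma adjusted p = 2.40e-06). *Il18* was at 1.76, 2.74, 2.89 and 1.53 FPKM in sham and at 2.32 to 7.95 FPKM in AAN mice (median 6.17). Its lowest AAN mouse, B614 at 2.32 FPKM, fell within the sham range. *Il18* rose by 1.301 ± 0.32 on the log2 scale (limma adjusted p = 0.00427), and this was 0.56 and not called after the median of ratios.

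The inhibitors of this family were higher as well. *Il18bp*, whose product binds IL-18 in solution, was the highest of all ligands and inhibitors in AAN mice, with 3.55, 2.70, 3.77 and 2.99 FPKM in sham and 13.0 to 41.0 FPKM in AAN mice (median 21.1). Its groups did not overlap, and its means differed 6.86-fold (2.64 ± 0.29, limma adjusted p = 1.24e-05). It overlaps *Numa1* in the annotation. *Il1rn*, the IL-1 receptor antagonist, was at 0 in 3 sham mice and 0.0374 FPKM in H249, against 0.472 to 1.09 FPKM in AAN mice (median 0.886). *Il1r2*, the decoy receptor for IL-1, was at 0 in 3 sham mice and 0.108 FPKM in B634, against 0.217 to 1.398 FPKM in AAN mice (median 0.809). Both were low in sham cortex and above every sham mouse in AAN, with fitted log2 changes of 3.07 ± 0.25 and 2.78 ± 0.40 (limma adjusted p = 1.11e-06 and 0.000109). *Il1f5*, which encodes the IL-36 receptor antagonist, was at most 0.0767 FPKM in any mouse and was not tested, so the agonist *Il1f6* had no matching rise in its antagonist at a level these libraries could measure.

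The promoters of *Il1a*, *Il1b* and *Il1rn* are shown because these genes of opposite function lie on the same chromosome and all rose. Each run is the RefSeq window (GRCm38.p6) from 250 bases before to 50 bases after the transcription start, 5′ to 3′ on the strand of the gene, with matches in capitals. For *Il1rn* 3 windows are listed, and the one with the most matches is printed.
Il1a promoter, chr2:129309923-129310222, minus strand: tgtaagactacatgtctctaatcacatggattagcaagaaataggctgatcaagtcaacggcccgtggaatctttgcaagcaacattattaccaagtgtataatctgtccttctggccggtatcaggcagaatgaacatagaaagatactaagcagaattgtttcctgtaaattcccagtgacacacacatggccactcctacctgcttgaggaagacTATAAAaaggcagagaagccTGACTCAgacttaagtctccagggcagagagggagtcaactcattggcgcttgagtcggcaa
Il1b promoter, chr2:129371090-129371389, minus strand: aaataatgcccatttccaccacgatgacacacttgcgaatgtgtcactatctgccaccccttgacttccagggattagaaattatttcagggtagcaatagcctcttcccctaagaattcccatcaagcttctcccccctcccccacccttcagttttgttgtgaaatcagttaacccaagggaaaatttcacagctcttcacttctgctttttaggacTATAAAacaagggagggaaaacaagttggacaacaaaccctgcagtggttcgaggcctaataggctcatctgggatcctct
Il1rn promoter, chr2:24336610-24336909, plus strand: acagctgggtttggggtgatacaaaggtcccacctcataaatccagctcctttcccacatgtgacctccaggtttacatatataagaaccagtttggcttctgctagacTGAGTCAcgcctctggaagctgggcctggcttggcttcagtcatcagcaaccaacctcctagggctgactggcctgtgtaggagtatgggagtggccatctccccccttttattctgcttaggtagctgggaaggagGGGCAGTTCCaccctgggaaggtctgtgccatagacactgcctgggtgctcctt
The letters searched, on both strands, were TATAAA for the TATA box, TGANTCA for AP-1, TTCNNNGAA for STAT and an NF-kB-like motif that begins with GGG and ends, after any 3 bases, with TTCC. The TATA box letters began 32 bases before the start of *Il1a* and 31 bases before that of *Il1b*, and the AP-1 letters 12 bases before the start of *Il1a* and 141 before that of *Il1rn*. Windows were listed for 56 of the 70 members. The TATA letters were in a window of 10 of these (17.9%, against 15.7% of all 27025 genes with a window), the AP-1 letters in 11 (19.6%, against 8.97%), the NF-kB-like letters in 9 (16.1%, against 6.31%) and the STAT letters in 11 (19.6%, against 9.55%). These shares are descriptions of letters in the window and not of bound sites.

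Outside the IL-1 family, *Il34* was the most abundant ligand in AAN cortex. Its product is a ligand of the macrophage receptor CSF1R. *Il34* (chromosome 8 from 110741829 to 110805924, minus strand) was at 5.13, 3.90, 4.82 and 4.29 FPKM in sham and 9.17 to 25.9 FPKM in AAN mice (median 18.4), without overlap. Means differed 4.01-fold (1.91 ± 0.26, limma adjusted p = 6.88e-05). *Il15*, which sustains NK and memory T cells, was the most abundant ligand in sham cortex and was not called. It was at 4.31, 5.03, 6.78 and 5.25 FPKM in sham and 5.14 to 8.06 FPKM in AAN mice (median 6.44). Its groups overlapped, with a log2 fold change of 0.28 ± 0.18 (limma adjusted p = 0.176), and the sign turned to -0.47 after the median of ratios and -0.44 after quantile normalization. *Il16*, a chemoattractant of CD4+ cells, was at 0.358, 0.121, 0.258 and 0.459 FPKM in sham and 1.58 to 5.66 FPKM in AAN mice (median 2.95), without overlap (3.0004 ± 0.35, limma adjusted p = 1.88e-05).

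**Figure D2:**
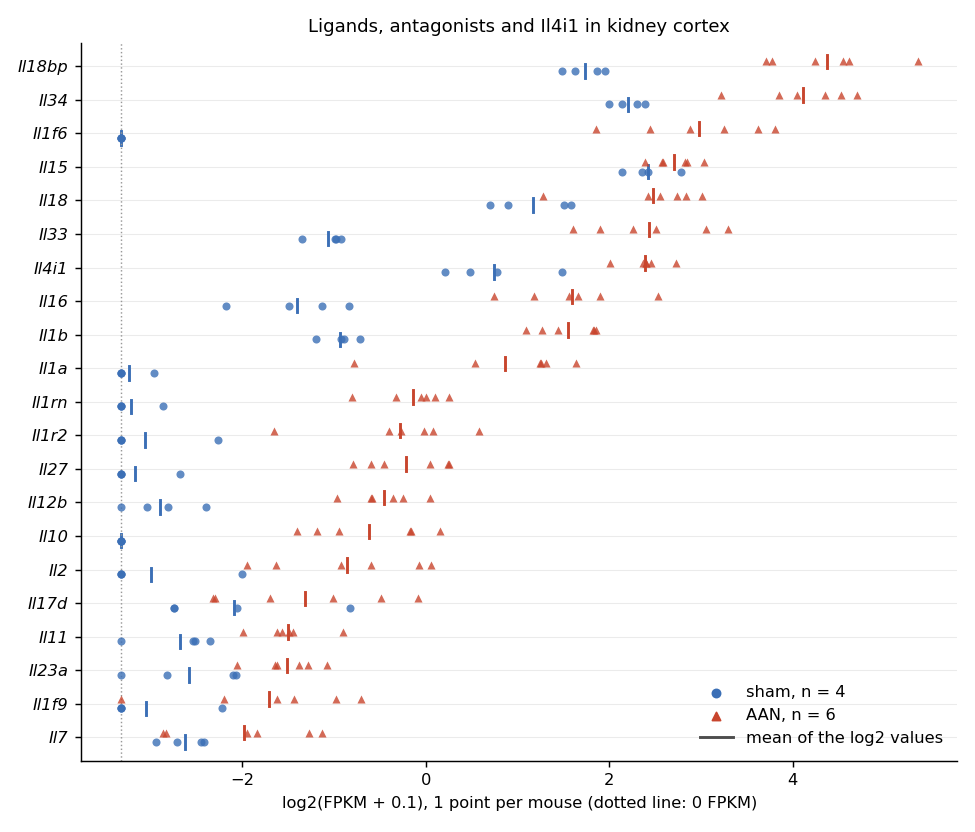
Level of each ligand, antagonist and *Il4i1* that was tested, as log2(FPKM + 0.1) in every mouse (circles, 4 sham mice; triangles, 6 AAN mice; bars, means of the log2 values), ordered by AAN mean. *Il1f6* lies at the line of 0 FPKM in all sham mice, and the groups overlap for *Il15*, *Il18*, *Il17d*, *Il1f9* and *Il7*.

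Ligands of lymphocytes and antigen-presenting cells were rare in absolute terms. *Il10*, which restrains macrophages, was listed at 0 in all sham mice and came to 6, 7, 16, 14, 21 and 9 fragments in the AAN mice (0.278 to 1.02 FPKM, median 0.604), at least 4.39-fold above the limit of 3 fragments. *Il27*, a subunit of IL-27, had 1 fragment over the sham mice and 8, 9, 10, 15, 15 and 18 in the AAN mice. *Il2*, the T cell growth factor, had 3 fragments in the sham mouse B607, 0 in the other 3, and 3, 4, 10, 13, 17 and 8 in the AAN mice. In each of the 3 genes the AAN mice had more, yet the mouse with the fewest *Il2* fragments among AAN equalled B607. In FPKM, *Il2* was 0.150 in B607 and at least 0.159 in AAN mice, with a fitted log2 change of 2.14 ± 0.45 (limma adjusted p = 0.00144), and those of *Il10* and *Il27* were 2.71 ± 0.33 and 2.94 ± 0.28 (limma adjusted p = 2.52e-05 and 3.80e-06).

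**Figure D3:**
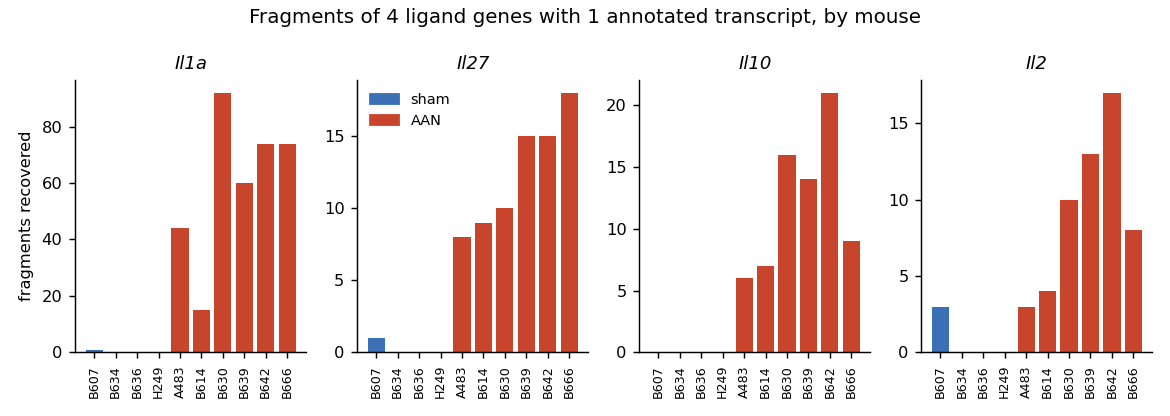
Whole fragments recovered for *Il1a*, *Il27*, *Il10* and *Il2*, ligand genes with 1 annotated transcript, with 1 bar per mouse (4 sham and 6 AAN, each panel with its own axis from 0). Sham mice hold 1, 1, 0 and 3 fragments in all, and AAN mice 359, 75, 73 and 55.

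The subunits of the IL-12 family differed in level. *Il12b*, shared by IL-12 and IL-23, was at 0, 0.0898, 0.0432 and 0.0216 FPKM in sham and 0.413 to 0.930 FPKM in AAN mice (median 0.624), without overlap (2.44 ± 0.26, limma adjusted p = 9.94e-06). Its partner in IL-12, *Il12a*, was at most 0.0604 FPKM, and its partner in IL-23, *Il23a*, at most 0.373 FPKM. *Ebi3*, the partner of *Il27* and no interleukin by symbol, averaged 0.525 FPKM in sham against 6.87 FPKM in AAN mice (3.50 ± 0.23, limma adjusted p = 3.00e-07). *Il23a* rose by 1.07 ± 0.31 (limma adjusted p = 0.0109), and fell under 2-fold without B607 (0.98), B636 (0.82) or B642 (0.98). It was 0.66 after the median of ratios and 0.11 after quantile normalization, neither called (limma adjusted p = 0.1404 and 0.846). *Il11*, a ligand of fibroblasts and epithelia, was at 0.152 to 0.434 FPKM in AAN mice and at most 0.0965 FPKM in sham mice (1.18 ± 0.28, limma adjusted p = 0.00344), and was under 2-fold without B607 (0.96), after the median of ratios (0.77) and after quantile normalization (0.24, limma adjusted p = 0.619).

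Effector cytokines of helper T cells and *Il6* were close to the limit of detection. The 17 members that were not tested had no value above 0.321 FPKM in any mouse. *Il4*, *Il13*, *Il19*, *Il21*, *Il24*, *Il12a*, *Il1f10* and the receptor *Il20ra* were at 0 in all sham mice and in at least 1 AAN mouse. *Il13* came to 2 and 3 fragments in B639 and B642 and 0 in the other mice, and *Il5* to 1 fragment in H249 and 4 in B666. *Il6* was at 0.0148 FPKM in 1 sham mouse and at 0 to 0.238 FPKM in AAN mice (median 0.0547). As these genes were under the filter and not tested, neither a difference nor its absence is read from them. *Il17f*, the only ligand with a lower mean in AAN mice, was at 0.0192 to 0.122 FPKM in sham and at most 0.0433 FPKM in AAN mice and was not tested. A further 13 genes of the annotation with such symbols, among them *Il17a*, *Il22*, *Il25*, *Il3* and *Il9*, are not among the listed genes and were not analysed here. The tested ligands *Il7* (0.65 ± 0.38) and *Il17d* (0.78 ± 0.53) were not called (limma adjusted p = 0.156 and 0.217).

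In the common gamma chain family 7 of 9 receptor chains were called higher (35.8% of all genes tested), 3 of the 9 having a sham mean under 0.1 FPKM. *Il2rg*, the shared gamma chain itself (chromosome X from 101264378 to 101268255, minus strand), was at 1.27, 0.590, 1.44 and 2.15 FPKM in sham and 16.8 to 38.3 FPKM in AAN mice (median 24.2), the highest mean of all receptor chains in AAN. Its groups did not overlap, and its means differed 18.3-fold (4.17 ± 0.31, limma adjusted p = 6.25e-07). *Il7r*, which binds IL-7 and TSLP, was at 0, 0.0590, 0.151 and 0.0756 FPKM in sham and 3.99 to 10.5 FPKM in AAN mice (median 4.86). Its fitted log2 change was the largest of any receptor with the pseudocount used here (5.15 ± 0.33, limma adjusted p = 2.41e-07). That rank depends on the pseudocount, as with a pseudocount of 1 the change was 2.65 for *Il7r* and 3.45 for *Il2rg*. *Il2rb*, shared by IL-2 and IL-15, was at 0.611, 0.0346, 0.183 and 0.383 FPKM in sham and 5.86 to 12.9 FPKM in AAN mice (median 7.81), a 27.7-fold difference of the means (4.59 ± 0.41, limma adjusted p = 2.25e-06). *Il21r* was at 0.213, 0.174, 0.179 and 0.358 FPKM in sham and 3.92 to 9.20 FPKM in AAN mice (median 7.69), a 32.4-fold difference (4.50 ± 0.26, limma adjusted p = 1.65e-07). In none of these 4 chains did the groups overlap.

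*Il2ra*, the high-affinity chain for IL-2, was at most 0.0409 FPKM in sham and at 1.02 to 1.81 FPKM in AAN mice (3.73 ± 0.22, limma adjusted p = 1.81e-07). *Il4ra*, the chain for IL-4 and IL-13, was at 2.61, 1.14, 1.90 and 2.67 FPKM in sham and 5.59 to 11.5 FPKM in AAN mice (median 10.5), a smaller, 4.57-fold difference without overlap (2.16 ± 0.28, limma adjusted p = 4.27e-05). *Il9r* was at most 0.682 FPKM and was called higher. *Il13ra1*, which joins *Il4ra* in the receptor for IL-13, was the most abundant receptor chain in sham cortex and was not called. It was at 26.0, 10.6, 12.5 and 17.03 FPKM in sham and 16.1 to 26.1 FPKM in AAN mice (median 22.9), with overlap (0.49 ± 0.24, limma adjusted p = 0.0951, and -0.27 after the median of ratios). *Il15ra* was at 0.701 to 0.982 FPKM in sham and 0.954 to 1.59 FPKM in AAN mice, under the 2-fold limit (0.58 ± 0.19, limma adjusted p = 0.0201), and was lower in AAN after the median of ratios (-0.12) and after quantile normalization (-0.58). Of the family's 6 ligands 3 were tested, and 1 of these (*Il2*) was called, so the roles cannot be compared by these counts.

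**Figure D4:**
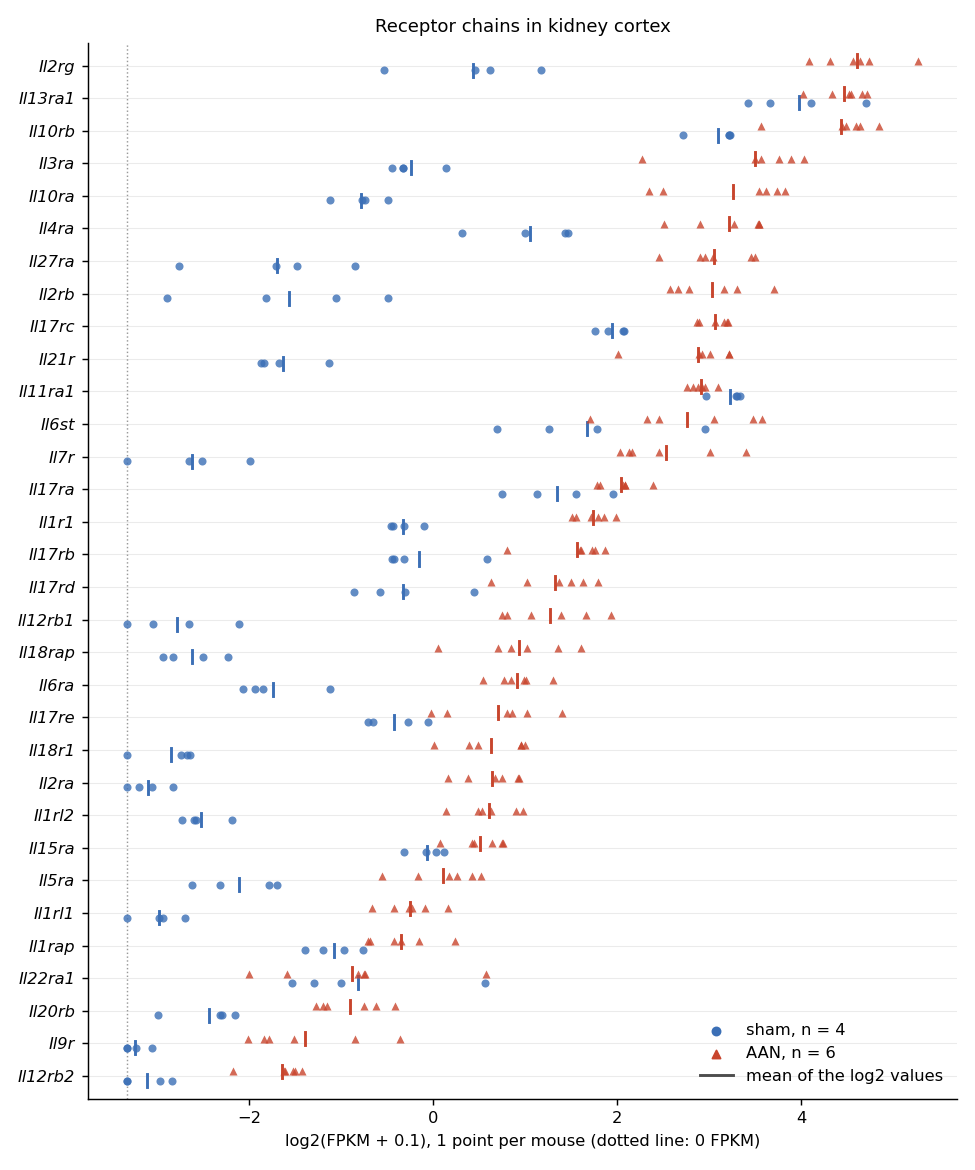
Level of each receptor chain tested, as log2(FPKM + 0.1) in every mouse (circles, 4 sham mice; triangles, 6 AAN mice; bars, means of the log2 values), ordered by AAN mean. *Il13ra1*, *Il10rb* and *Il11ra1* have the 3 highest sham means, whereas *Il2rg* has the highest AAN mean. The order differs in some single mice.

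In AAN cortex the order of the receptor means began with *Il2rg* (25.0 FPKM), *Il13ra1* (22.2 FPKM), *Il10rb* (22.1 FPKM), *Il3ra* (11.99 FPKM) and *Il10ra* (10.2 FPKM). The ranges of the first 3 overlapped one another, and so did those of *Il3ra* and *Il10ra*. *Il3ra*, which pairs with the common beta chain, was at 0.696, 0.634, 1.002 and 0.696 FPKM in sham and 4.71 to 16.2 FPKM in AAN mice (median 12.5), without overlap (3.74 ± 0.31, limma adjusted p = 1.24e-06). *Il5ra*, the eosinophil receptor for IL-5, was at 0.208, 0.0628, 0.191 and 0.101 FPKM in sham and 0.582 to 1.33 FPKM in AAN mice (median 1.06), also without overlap (2.21 ± 0.28, limma adjusted p = 3.21e-05). Both receptors of the common beta chain family were called higher (35.8% of all genes tested were). Their ligands were at most 0.160 FPKM (*Il5*, not tested) or not listed (*Il3*), so the roles cannot be compared here.

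In the IL-10 family, *Il10ra* binds IL-10 and is confined largely to leukocytes, and *Il10rb* is shared and widespread. *Il10ra* was at 0.483, 0.359, 0.610 and 0.499 FPKM in sham and 4.98 to 14.1 FPKM in AAN mice (median 11.8), a 21.02-fold difference (4.04 ± 0.32, limma adjusted p = 8.65e-07). *Il10rb* was at 6.44, 9.18, 9.22 and 9.20 FPKM in sham and 11.7 to 28.5 FPKM in AAN mice (median 23.1), a 2.60-fold difference (1.33 ± 0.23, limma adjusted p = 0.000448). Neither overlapped between the groups, but *Il10rb* was not called after the median of ratios (0.58). *Il20rb* was called higher at a low level (0.315 to 0.652 FPKM in AAN mice). *Il22ra1*, the epithelial chain for IL-22, was at 1.38, 0.246, 0.307 and 0.401 FPKM in sham and 0.151 to 1.39 FPKM in AAN mice (median 0.482), with full overlap (-0.07 ± 0.51, limma adjusted p = 0.913).

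The IL-6 and IL-12 family split between chains that were called and chains that were not. *Il27ra* was at 0.258, 0.0475, 0.206 and 0.457 FPKM in sham and 5.39 to 11.1 FPKM in AAN mice (median 7.88), a 34.8-fold difference (4.75 ± 0.33, limma adjusted p = 4.36e-07). *Il12rb1*, shared by IL-12 and IL-23, was at 0.0596, 0.132, 0.0211 and 0 FPKM in sham and 1.57 to 3.73 FPKM in AAN mice (4.05 ± 0.31, limma adjusted p = 7.01e-07). *Il6ra* was at 0.360, 0.179, 0.161 and 0.138 FPKM in sham and 1.35 to 2.37 FPKM in AAN mice (2.65 ± 0.23, limma adjusted p = 2.01e-06). In these 3 chains every AAN mouse was above every sham mouse. *Il12rb2* was called higher at a low level (0.121 to 0.272 FPKM in AAN mice), and *Il23r* was at 0 in sham and came to 2, 7, 5, 2, 2 and 1 fragments in AAN mice.

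*Il6st* (gp130), the signalling chain of most IL-6 family cytokines, was not called. It was at 7.65, 1.52, 2.30 and 3.34 FPKM in sham and 3.17 to 11.8 FPKM in AAN mice (median 6.77), and the sham mouse B607 lay above 3 of the 6 AAN mice. Its log2 fold change was 1.09 ± 0.45 (limma adjusted p = 0.0551), 1.51 without B607 and 1.298 without B639 (both then called), and 0.60 without B614 and B634 together (limma adjusted p = 0.277). *Il11ra1*, the receptor for IL-11, was the second most abundant receptor chain in sham cortex and the only one above 1 FPKM with a lower mean in AAN mice. It was at 9.65, 7.71, 9.99 and 9.75 FPKM in sham and 6.67 to 8.45 FPKM in AAN mice (median 7.36), with overlap only through B634. Its log2 fold change of -0.32 ± 0.14 was not called (limma adjusted p = 0.0638). It was called lower after the median of ratios (-1.07, limma adjusted p = 2.87e-05) and was 0.043 with the same FPKM total in every mouse. In the annotation it overlaps 6 listed genes, and its close copy *Il11ra2* was not analysed here, so the share of its fragments is uncertain.

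Among IL-1 family receptors, *Il1r1*, the signalling receptor for IL-1, was at 0.832, 0.630, 0.705 and 0.637 FPKM in sham and 2.74 to 3.88 FPKM in AAN mice (median 3.28), a 4.64-fold difference without overlap (2.06 ± 0.16, limma adjusted p = 9.21e-07). *Il18r1* and *Il18rap*, the 2 chains of the IL-18 receptor, were at most 0.0600 and 0.114 FPKM in sham, and at 0.907 to 1.90 and 0.940 to 2.94 FPKM in AAN mice (3.48 ± 0.26 and 3.55 ± 0.30, limma adjusted p = 5.89e-07 and 1.402e-06). *Il1rl1*, the IL-33 receptor ST2, was at most 0.0549 FPKM in sham and at 0.530 to 1.02 FPKM in AAN mice (2.73 ± 0.23, limma adjusted p = 1.41e-06). The ligand-binding chains were thus all called (35.8% of all genes tested were called higher). All but *Il1r1* had sham means under 0.1 FPKM and could be tested only through AAN mice, so nothing is read from this count. *Il1rap*, the accessory chain that IL-1, IL-33 and IL-36 receptors share, was at 0.489, 0.335, 0.411 and 0.282 FPKM in sham and 0.513 to 1.08 FPKM in AAN mice (median 0.666). Its groups did not overlap, but its change was under 2-fold (0.73 ± 0.24, limma adjusted p = 0.0183) and close to the median of all genes (0.75).

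The IL-17 receptor chains had the lowest median change among the families with several receptors. *Il17rc* was at 4.12, 3.62, 3.27 and 4.07 FPKM in sham and 7.19 to 9.13 FPKM in AAN mice (1.11 ± 0.14, limma adjusted p = 4.13e-05). *Il17ra*, the shared chain, was at 3.76, 1.58, 2.08 and 2.83 FPKM in sham and 3.33 to 5.12 FPKM in AAN mice, with overlap and under the 2-fold limit (0.69 ± 0.23, limma adjusted p = 0.0203), and its sign turned after the median of ratios (-0.045) and after quantile normalization (-0.19). *Il17rb* (1.71 ± 0.26), *Il17rd* (1.65 ± 0.29) and *Il17re* (1.12 ± 0.29) were called higher, with limma adjusted p of 0.000179, 0.000468 and 0.00528. The family's median log2 fold change was 1.12 over 5 receptors, and after the median of ratios *Il17rb* (1.003) was the only one called. *Il17re* was under 2-fold without B630 (0.98) and had a value of -0.049 after quantile normalization. *Il4i1*, the enzyme, was at 2.70, 1.06, 1.301 and 1.61 FPKM in sham and 3.93 to 6.55 FPKM in AAN mice (1.65 ± 0.24, limma adjusted p = 0.000102, 0.92 and not called after the median of ratios), and overlaps *Atf5* and *Tbc1d17* in the annotation.

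Balances between partner genes were compared within each mouse as the difference of their log2(FPKM + 0.1), which does not depend on scaling between mice except through the pseudocount. Of 15 pairs written down, 13 had both genes above the filter, and 9 differed between the groups at an adjusted p of at most 0.05 (exact two-sided permutation test over 210 splits, Benjamini-Hochberg over 13 pairs). In 7 of the 9 the first gene gained on the second in AAN mice. In 4 of the 9 (those with *Il1rn*, *Il18r1*, *Il7r* and *Il11*) a gene had a sham mean under 0.1 FPKM and passed the filter only through AAN mice, so the sham balance is set by the pseudocount and the size of the difference moves with it.

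Transcripts of the IL-18 binding protein gained on those of IL-18. *Il18bp* minus *Il18* was -0.02 to 0.97 in sham and 1.21 to 2.62 in AAN mice, a difference of 1.34 ± 0.33 (standard error) without overlap (exact permutation test, adjusted p = 0.00884, p = 0.00476 being the smallest 210 splits allow). The receptor *Il18r1* minus *Il18* was -4.83 to -3.38 in sham and -2.45 to -1.26 in AAN mice, a difference of 2.18 ± 0.34 with the same exact p. With a pseudocount of 1 the latter was 0.21 and did not pass (exact adjusted p = 0.473), and *Il18r1* lies below either pseudocount in every sham mouse. Both the binding protein and the receptor therefore gained on *Il18* with the pseudocount used here, the receptor only on a scale that resolves levels under 1 FPKM.

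Receptor chains of leukocytes gained on widespread chains, and *Csf1r* on *Il34*. *Il10ra* minus *Il10rb* was -4.34 to -3.49 in sham and -2.29 to -0.76 in AAN mice (2.71 ± 0.32), and *Il2rg* minus *Il4ra* was -0.98 to -0.30 in sham and 1.11 to 1.73 in AAN mice (2.01 ± 0.18). *Csf1r*, the receptor for IL-34, minus *Il34* was -0.34 to 0.47 in sham and 1.21 to 1.98 in AAN mice (1.63 ± 0.21). These 3 differed without overlap (exact permutation test, adjusted p = 0.00884 each), so *Il34*, although the leading ligand, rose less than its receptor. *Il7r* minus *Il7* was -0.87 to 0.72 in sham, where both genes had means under 0.1 FPKM, and 3.29 to 5.35 in AAN mice (4.50 ± 0.50, exact permutation test, adjusted p = 0.00884). It was 2.51 with a pseudocount of 1 and 5.62 with 0.01. These shifts went along with the markers above, whose part in them was not tested.

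In the opposite direction, *Il11ra1* minus *Il11* was 5.48 to 6.61 in sham and 3.78 to 4.91 in AAN mice, a difference of -1.49 ± 0.28 (exact permutation test, adjusted p = 0.00884). As *Il11* was under 0.1 FPKM in every sham mouse, the sham values rest on the pseudocount, and the difference was -0.53 with a pseudocount of 1 and -2.64 with 0.01. *Il6st* minus *Il6ra* was 2.54 to 4.08 in sham and 0.72 to 2.63 in AAN mice, with overlap (-1.57 ± 0.48, exact permutation test, adjusted p = 0.0310). The latter did not pass without B607 (-1.35), B636 (-1.64), H249 (-1.42), A483 (-1.42), B630 (-1.55) or B666 (-1.65), or with a pseudocount of 1 (-0.32). The antagonist *Il1rn* minus its competitor *Il1b* was -2.61 to -1.97 in sham and -2.25 to -1.09 in AAN mice (0.59 ± 0.23, exact permutation test, adjusted p = 0.0481). It did not pass without any 1 mouse other than B614 (0.47 to 0.69), and with a pseudocount of 1 it turned to -0.58 (exact adjusted p = 0.0155), so no direction of this balance holds across pseudocounts.

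The remaining 4 pairs did not pass. *Il1r2* minus *Il1r1* differed by 0.72 ± 0.43, *Il1rl1* minus *Il33* by -0.77 ± 0.34, *Il15ra* minus *Il15* by 0.29 ± 0.15 and *Il17ra* minus *Il17rc* by -0.42 ± 0.20 (exact permutation test, adjusted p = 0.129, 0.0788, 0.108 and 0.0788). Without the sham mouse B634 the last was -0.60 and passed (exact adjusted p = 0.0221).

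**Figure D5:**
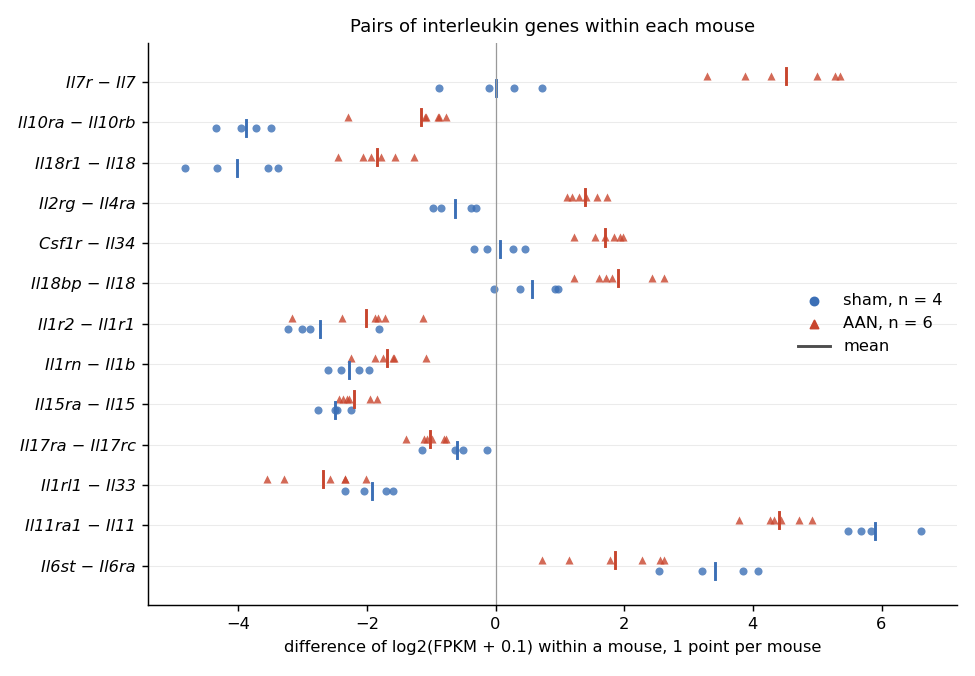
Difference of log2(FPKM + 0.1) between partner genes within each mouse (circles, 4 sham mice; triangles, 6 AAN mice; bars, means), ordered by the difference between the groups. The 6 uppermost pairs and *Il11ra1* minus *Il11* do not overlap between the groups, and the other 6 do.

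Some members lie next to each other in the genome and could be compared as neighbours, taken as members within 200 kb of the next. On chromosome 1 of GRCm38 from 40074079 to 40551705, *Il1r2*, *Il1r1*, *Il1rl2*, *Il1rl1*, *Il18r1* and *Il18rap* follow one another, and 6 of 6 were called higher, with log2 fold changes from 2.06 (*Il1r1*) to 3.55 (*Il18rap*). All but *Il1r1* had sham means under 0.1 FPKM and could be tested only through AAN mice, so nothing is read from this count (35.8% of all genes tested were called higher). Their sham means ranged from 0.0269 FPKM (*Il1r2*) to 0.701 FPKM (*Il1r1*). On chromosome 2 from 24153161 to 24351494, *Il1f8*, *Il1f9*, *Il1f6*, *Il1f5*, *Il1f10* and *Il1rn* follow one another, and 3 of 6 were called. Here the neighbours differed widely in AAN mice, from a mean of 0.0166 FPKM (*Il1f8*) to 8.61 FPKM (*Il1f6*). On chromosome 11 from 53602982 to 53725106, *Il4*, *Il13* and *Il5* were all too low to be tested.

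Other genes of these pathways were described from lists of 44 genes, of which 34 were called higher and 0 lower, against 35.8% of all genes tested called higher. Of the 44, *Csf2*, *Osm*, *Lif*, *Tslp*, *Csf2rb2*, *Stat4* and *Nlrp3* had sham means under 0.1 FPKM. They could be tested only through AAN mice, so the count carries that selection. Among 15 other cytokines and receptor partners, 12 were called, with a median log2 fold change of 3.17. The common beta chain *Csf2rb* averaged 0.236 FPKM in sham against 10.2 FPKM in AAN mice (5.00 ± 0.29, limma adjusted p = 1.77e-07). Its near-identical copy *Csf2rb2*, which may share its fragments, had means of 0.0867 and 6.61 FPKM. *Lif*, an IL-6 family ligand, was at 0.0536 and 4.10 FPKM (4.74 ± 0.32, limma adjusted p = 3.54e-07), and *Osmr*, a partner of *Il6st* and of *Il31ra*, at 0.294 and 4.38 FPKM (3.48 ± 0.22, limma adjusted p = 2.50e-07). *Sigirr*, an inhibitory receptor of the IL-1 family, was at 37.9 and 22.02 FPKM (-0.78 ± 0.17, limma adjusted p = 0.00171). It was under the 2-fold limit as deposited and was called lower after the median of ratios (-1.54).

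Of 15 JAK, STAT and SOCS genes, 13 were called higher as deposited and 10 after the median of ratios (19.0% of all genes), with a median of 1.89 as deposited. *Socs3*, an inhibitor induced by STAT3, led with means of 0.459 and 20.6 FPKM (5.17 ± 0.30, limma adjusted p = 1.79e-07). *Stat4*, which acts under the IL-12 receptor, followed (4.11 ± 0.31, limma adjusted p = 6.96e-07), from a sham mean of 0.0408 FPKM, under the minimum for a test. *Stat5b* (0.78 ± 0.19) and *Cish* (1.05 ± 0.45) were not called (limma adjusted p = 0.00406 and 0.0599). All 6 genes that process interleukins were called higher, and 5 after the median of ratios. Among the 6 was *Casp1*, which cleaves IL-1 beta and IL-18 (0.846 and 12.6 FPKM, 3.75 ± 0.27, limma adjusted p = 5.50e-07). Of 8 adaptors of IL-1 and IL-17 receptors 3 were called (*Myd88*, *Irak3* and *Irak4*), close to the 35.8% of all genes, and the median of 0.78 over the 8 was close to that of all genes (0.75). After the median of ratios 1 of the 8 was called, with a median of 0.05.

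Set against *Ptprc* (CD45), a gene of all leukocytes, most members gained less on the scale of log2(FPKM + 0.1). *Ptprc* was at 0.171 to 0.326 FPKM in sham and 4.18 to 6.93 FPKM in AAN mice. The log2 level minus that of *Ptprc* was higher in AAN mice for 9 of 53 members tested, namely the ligands *Il1f6* (2.34 ± 0.37) and *Il1a* (0.13 ± 0.45) and the receptors *Il7r* (1.19 ± 0.42), *Il27ra* (0.78 ± 0.30), *Il2rb* (0.63 ± 0.42), *Il21r* (0.54 ± 0.24), *Il2rg* (0.21 ± 0.23), *Il12rb1* (0.08 ± 0.41) and *Il10ra* (0.08 ± 0.39). The other 44 had lower or equal values, with a median of -1.80 over all 53. Of the 53 members, 22 had a sham mean under 0.1 FPKM, so the pseudocount holds their gain down more than that of *Ptprc*. For *Il1rn*, for example, the fitted change was 3.07 with a pseudocount of 0.1 and 5.79 with 0.01. Which members gain less than *Ptprc* thus depends on the pseudocount. These differences are descriptions and were not tested. The AAN mouse B614 was the lowest AAN mouse in 27 of the 43 members called higher. Without it and the sham mouse B634, 43 members were again called higher and 0 lower, 14 ligands and 25 receptors among them, and the fitted change was 6.52 for *Il1f6* and 3.95 for *Il2rg*.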

How the data were processed

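RNA-seq of kidney cortex of 4 sham and 6 AAN mice was used, grouped by the labels. After read filtering and mapping to GRCm38.p4 (Hisat2 2.0.4), the authors obtained FPKM of known genes from Stringtie 1.3.0, and these FPKM are the deposited values. No further normalization is named. The annotation release, the strand setting and the treatment of shared fragments are not given in the sources used here, so the 21 members that overlap a listed gene are uncertain. Symbols and positions came from GENCODE mouse release M21, which holds 21650 of the 21792 genes, and promoters from RefSeq.

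Depth was recovered from genes with 1 annotated transcript, whose values under 0.3 FPKM were whole fragments (within 0.05) in 94.5% to 96.8% of cases. Intervals and limits of 3 fragments cover counting error only.

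The study's test needs counts and cannot be used on FPKM. Instead, limma 3.58.1 (R 4.3.3, moderated variances with trend, robust, two-sided) was fitted to log2(FPKM + 0.1) of the 17129 genes averaging 0.1 FPKM or more, with Benjamini-Hochberg adjustment over all of them. A call needed an adjusted p no larger than 0.05 and a fold of at least 2 or at most 0.5. Values after ± are SE of log2 differences. Fold changes on this scale understate low genes. For pairs, the exact permutation test (two-sided) ran over 210 splits. Scripts ran in Python 3.11.15 with numpy 2.4.6, pandas 2.3.3 and matplotlib 3.10.9, and were tested on simulated data.

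The members, lists, pairs and motifs were chosen with earlier results of these data known. Members with a group mean of at least 1 FPKM (36 members) were named with values, and others where they were at 0 in all sham mice, passed the limits or filled a role in a comparison. No batch is stated in the sources, and one that coincides with the groups cannot be told apart from them. P-values measure the spread between single mice. Alternatives were pseudocounts of 1 and 0.01, other filters, 3 rescalings, plain limma, no fold limit, each mouse left out, B614 and B634 left out, and mice with B tags alone.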

Additional observations from a re-analysis of the deposited data

Results flagged for a closer look

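Listed below are mice that stood off from the rest of their own group by Dixon's criterion at the 95% level, which compares the gap beside the extreme mouse with the spread from lowest to highest. It picked out 8 cases among 71 sets of 4 or 6 values, and about 3.55 would be picked out by chance. No cause was tested.

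The sham mouse B607 accounts for 4. In B607 *Il10rb* was at 6.44 FPKM (9.18 to 9.22 FPKM in the other sham mice), *Il17rb* at 1.398 FPKM (0.635 to 0.703 FPKM), *Il33* at 0.293 FPKM (0.404 to 0.427 FPKM) and *Il1a* at 0.0289 FPKM, or 1 fragment, with 0 in the other sham mice. With the others tied at 0, any value above 0 in B607 would have been picked out, so nothing is read from the case of *Il1a*. Sham B634 was lowest in *Il11ra1*, at 7.71 FPKM (9.65 to 9.99 FPKM in the others), and it is this mouse through which the groups overlap. Sham B636 was highest in *Il3ra*, at 1.002 FPKM (0.634 to 0.696 FPKM). The AAN mouse B614 was lowest in *Il17rb*, at 1.64 FPKM (2.92 to 3.55 FPKM in the other AAN mice), and in *Il21r*, at 3.92 FPKM (7.29 to 9.20 FPKM).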

How the results depend on the processing

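No paired analysis was possible because no tag occurs in both groups. Where no cause is given, the cause was not tested. The members called higher, 43, were 26 with a pseudocount of 1 and 26 with the filter raised to 1 FPKM (fewer genes tested). Under both settings 7 ligands and 1 antagonist or decoy were called. The receptors called higher, 25, were 16 after quantile normalization. The members called lower, 0, were 1 after the median of ratios (*Il11ra1*), as were the other pathway genes called lower (1, *Sigirr*). When single mice were left out, 41 to 44 members were called higher (11 to 14 ligands, 24 to 26 receptors) and 0 lower.

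The sign turned for *Il15* (-0.47 with median-of-ratios scaling, -0.44 with quantile normalization), *Il15ra* (-0.12 and -0.58), *Il17ra* (-0.045 and -0.19), *Il13ra1* (-0.27 with median-of-ratios scaling), *Il17re* (-0.049 with quantile normalization) and *Il11ra1* (0.043 with the same FPKM total). The first 4 and *Il11ra1* were not called as deposited.

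Pair differences depended on the pseudocount. With 1, *Il1rn* minus *Il1b* was -0.58 and *Il1r2* minus *Il1r1* was -0.53, both turned, *Il18r1* minus *Il18* (0.21) and *Il6st* minus *Il6ra* (-0.32) did not pass, and *Il1rl1* minus *Il33* (-1.44) and *Il17ra* minus *Il17rc* (-0.43) did. With 0.01, *Il1r2* minus *Il1r1* passed (3.08) and *Il1rl1* minus *Il33* turned (0.80). Among mice with B tags alone *Il1rn* minus *Il1b* (0.70) and *Il6st* minus *Il6ra* (-1.28) did not pass. With each mouse left out, *Il1rn* minus *Il1b* was 0.47 to 0.70, *Il6st* minus *Il6ra* -1.86 to -1.34 and *Il17ra* minus *Il17rc* -0.60 to -0.26. After the median of ratios all 13 pairs kept their direction and their side of the threshold. Depth limits the 17 members under the filter.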
